A study of Homo sapiens with 6 samples.

Results

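Mitochondrial complex I, the NADH:ubiquinone oxidoreductase of the respiratory chain, was examined through its nuclear genes in hemogenic endothelial cells made with and without alpha lipoic acid. Members were the genes of the count table whose symbol begins with NDUFA, NDUFB, NDUFC, NDUFS or NDUFV. Antisense genes were left out (2 genes), which kept 47 of 29436 gene symbols. They comprise 37 nuclear-encoded subunits, 7 assembly factors (NDUFAF1 to NDUFAF7), NDUFA4 and its paralog NDUFA4L2, and the readthrough gene NDUFC2-KCTD14. Subunits were assigned to parts of the complex by textbook membership: 10 to the N module, 5 to the Q module, 5 to the part of the membrane arm around ND1, 5 around ND2, 6 around ND4 and 6 around ND5.

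Hemogenic endothelium, from which blood cells bud, was derived on AGM-S3 stroma from the human embryonic stem cell line H1. In both groups cells of the phenotype CD34+CD43-KDR+CD144+ were sorted on day 8, and each library was made from amplified cDNA of 1000 cells. The medium of the lipoic acid group held 100 µg/ml alpha lipoic acid and that of the untreated group held none, with 3 libraries per group. Nothing in the labels says whether the libraries came from separate cultures, so the p-values speak of the spread among the libraries alone, and that spread may be technical.

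Complex I is an L-shaped enzyme. Its N module oxidises NADH on a flavin, its Q module passes the electrons along iron-sulfur clusters to ubiquinone, and its membrane arm pumps protons. The core subunits are split between the nuclear and the mitochondrial genome, the accessory subunits are all nuclear, and the assembly factors help to build the enzyme but are not in it. Lipoate attached to protein serves the mitochondrial dehydrogenases that produce NADH, and free alpha lipoic acid acts as an antioxidant.

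Promoter windows from 250 bases before to 50 bases after the start, from RefSeq on GRCh38.p14, were matched to 41 of the 47 genes, and 4 motifs were searched on both strands. Motifs, like the members, were chosen with results of these data known, and a match is a description of letters and not of a bound factor. The antioxidant-response core of NFE2L2 (TGACNNNGC) was in 11 members, 26.8%, against 17.9% of all protein-coding genes and 13.3% of all windows. Among members whose RNA was called higher with lipoic acid it was in 3 of 4 (NDUFS1, NDUFA5 and NDUFAF2), among those called lower with a window in 0 of 7, and among those not called in 7 of 26. All 3 of these higher calls were lost once a trend on GC content and length was removed (edgeR adjusted p 0.422, 0.147 and 0.0722). NDUFA11, the 1 member still called higher then, had no match to this core. The NRF1 motif (GCGCA and GCGC with any 1 base between), labelled a palindrome below, is named for a regulator of nuclear respiratory genes. It reads the same on both strands only where that base is T, as in the NDUFB4 stretch below. The motif was in 7 members, 17.1%, against 9.67% of protein-coding genes and 5.78% of windows. It was in 1 of the 4 members called higher (NDUFA11), 0 of 7 called lower and 5 of 26 not called. The YY1 core (AAGATGGC) was in 7 members, 17.1%, against 4.66% of protein-coding genes and 2.89% of windows. The GABPA (ETS) core (CCGGAAGT) was in 2 members (NDUFS1 and NDUFA13), 4.88%, against 6.97% of protein-coding genes and 4.14% of windows. Among the matches with both flanks inside the window, none of 1 motif overlapped one of another motif. An NFE2L2 or NRF1 match of each of the 4 members called higher follows, with those of NDUFA12 and NDUFB4 as members not called that hold the NRF1 motif. Each is written 5′ to 3′ on the gene's strand, with the motif or its reverse complement in capitals and 10 flanking bases on each side.
NDUFS1, chr2:206159218-206159246, minus strand, NFE2L2 core: ctgttgtcctTGACTGGGCgccgcctccc
NDUFA5, chr7:123557785-123557813, minus strand, NFE2L2 core just after the start: cgagtcgttgGCGCTGTCAtggcgggtgt
NDUFAF2, chr5:60945038-60945066, plus strand, NFE2L2 core 157 bases before the start: gacgtcgccaTGACAGAGCtcaggggcgg
NDUFA11, chr19:5903869-5903898, minus strand, NRF1 palindrome 98 bases before the start: ccggtccccgGCGCGTGCGCgcgatccatg
NDUFA12, chr12:95003794-95003823, minus strand, NRF1 palindrome: acctagctctGCGCACGCGCagagccacca
NDUFB4, chr3:120596167-120596196, plus strand, the most upstream of its NRF1 palindromes: agagcacttcGCGCATGCGCatatcaccga

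Library totals ran from 30041494 to 41351951 counts. Even numbers made up at least 99.13% of nonzero counts in all lipoic acid libraries and in untreated replicate 1, but 52.01% and 51.97% in untreated replicates 2 and 3. Counts of the mitochondrial genome made up 2.454% to 2.821% of the untreated and 4.391% to 5.017% of the lipoic acid libraries. All 9 endothelial markers were tested, 2 were higher and 5 lower with lipoic acid, and their summed level was 11430 to 11505 counts per 1000000 (CPM) without and 9867 to 10179 CPM with it. The 4 blood markers summed to 0.0665 to 1.42 CPM untreated and 2.22 to 2.71 CPM with lipoic acid. Of them SPN, which encodes CD43, and PTPRC were at 0 in every library, and ITGA2B, the 1 tested, was called higher (0.66 ± 0.689 to 2.47 CPM). Epithelial markers summed to 226 to 249 CPM untreated and 410 to 476 CPM with lipoic acid (6 of 7 tested were higher). Endoderm and liver markers summed to 65.1 to 74.5 CPM and 159 to 224 CPM (6 of 7 higher, SOX17 lower), and mesenchymal markers to 1888 to 2517 CPM and 1436 to 1972 CPM (5 of 8 lower). Cardiac markers summed to 9.97 to 10.9 CPM untreated and 8.61 to 9.71 CPM with lipoic acid. Of the 3 tested, 1 was higher (ACTN2) and 1 lower (TNNT2). Pluripotency markers summed to 79.4 to 83.8 CPM untreated and 89.4 to 91.3 CPM with lipoic acid. Of the 3 tested, 2 were higher (LIN28A, 1.68-fold, and ZFP42, 1.91-fold). POU5F1 was at 0 in every library. The part of these other cell types in the results on complex I was not tested. In sorted bulk cells, fewer cells of a type and less RNA per cell cannot be told apart.

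Of the 47 members 43 had enough counts to be tested. With lipoic acid 4 of them were higher and 9 lower at an adjusted p under 0.05 by edgeR's quasi-likelihood test, and 30 were not called. Called members were 30.2% of those tested, against 47.4% of all 13780 genes tested, of which 24.2% were called higher and 23.3% lower. The median log2 fold change was -0.14 over the members and -0.01 over all genes, with 33 members below 0 and 10 above. The groups did not overlap for 20 members (4 higher and 16 lower with lipoic acid), against 59.1% of all genes (30.4% higher and 28.8% lower). The 13 called members were all among these 20. The other 7, all lower with lipoic acid, were NDUFA2, NDUFA9, NDUFC2, NDUFB4, NDUFB8, NDUFAF3 and NDUFAF4, with adjusted p from 0.0552 (NDUFAF4) to 0.138 (NDUFB8). Calls depended on which libraries were used. Without untreated replicate 3, 2 members were called higher and 10 lower (background 20.9% and 19.3%). Without lipoic acid replicate 2 the counts were 2 and 7 (20.2% and 18.5%), and without lipoic acid replicate 3 they were 2 and 5 (18.9% and 16.9%). The 4 libraries of even counts alone gave 4 and 8 (19.5% and 17.8%), limma voom with quality weights 7 and 10 (27.4% and 26.9%), and an adjusted p under 0.1 gave 4 and 15 (28% and 27.9%).

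**Figure D1:**
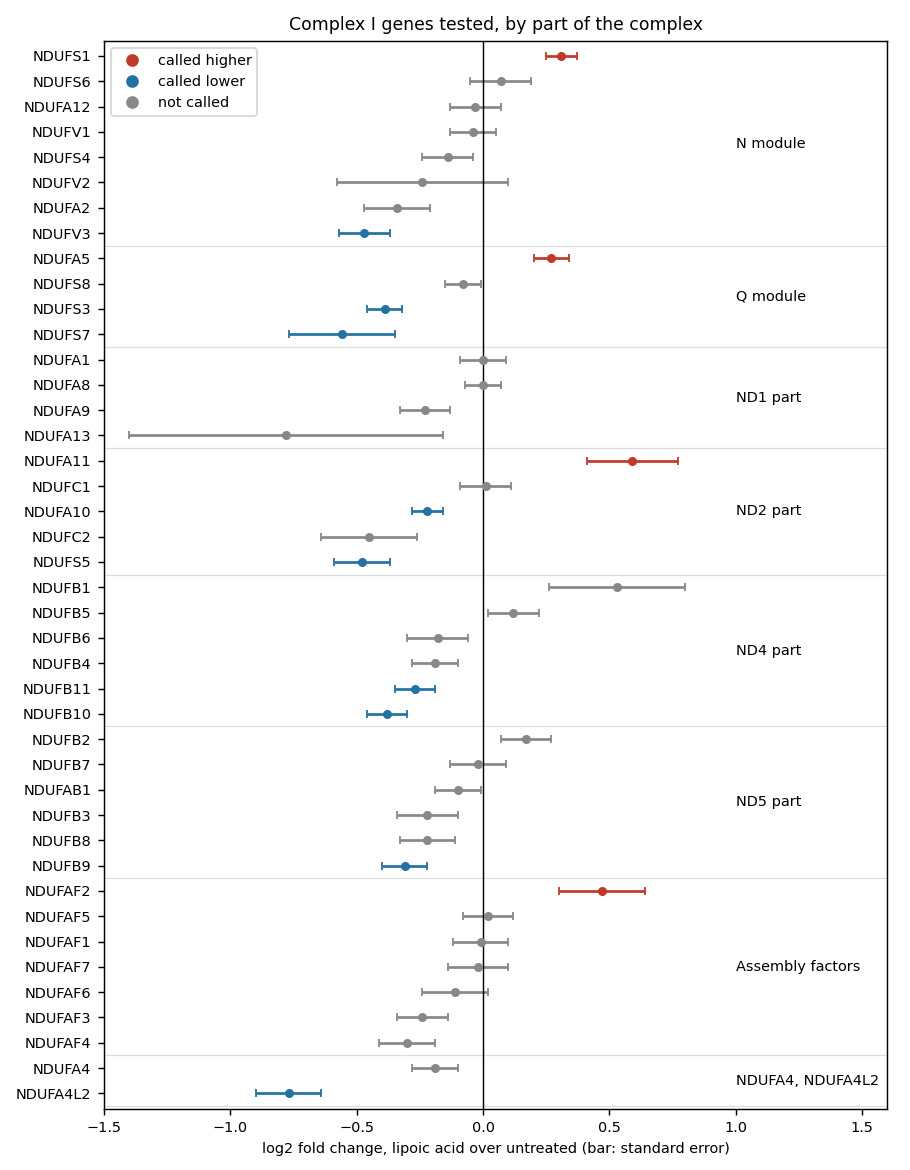
Fitted log2 fold change (lipoic acid over untreated, horizontal axis) of 42 of the 43 members tested, grouped by part of the complex on the vertical axis; bars are standard errors and colour marks the call. Most points lie left of 0, and the 4 called higher sit in the N, Q and ND2 parts and among the assembly factors.

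In the N module, 1 of 8 tested subunits was higher and 1 lower, against 24.2% and 23.3% of all genes tested. NDUFS1, the largest core subunit and carrier of several iron-sulfur clusters (chr2:206114817-206159603, minus strand in GENCODE v29), was at 153, 159 and 152 CPM in the untreated and 182, 203 and 190 CPM in the lipoic acid libraries. Every lipoic acid library was above every untreated one. Its mean rose from 155 ± 4.27 to 192 ± 10.4 CPM (SD, n = 3 each), a fitted 1.24-fold rise (log2 0.31, SE 0.06, edgeR adjusted p = 0.00223). NDUFV3, an accessory subunit of the NADH-oxidising part (chr21:42879644-42913304, plus strand), was at 25.2, 22.8 and 24.1 CPM untreated and 15.8, 17.4 and 18.8 CPM with lipoic acid. The groups were apart, and NDUFV3 fell 1.39-fold (log2 -0.47, SE 0.10, edgeR adjusted p = 0.00355). The summed level of the 10 N-module genes was 398 ± 19.9 CPM untreated and 418 ± 9.96 CPM with lipoic acid, a ratio of 1.05, and these sums overlapped between the groups (379 to 419 and 408 to 428 CPM). NDUFS1 alone gained more than the sum did, so the other genes of the module together summed to less with lipoic acid. The median log2 fold change of the 8 tested subunits was -0.09, with 6 below 0.

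The other N-module subunits were not called. NDUFS4, an accessory subunit whose loss causes Leigh syndrome, had the highest level per kilobase of transcript in the module (89.8 CPM per kb). It was at 55.6, 73.4 and 61.4 CPM untreated and 59.6, 56.3 and 57.4 CPM with lipoic acid, and the groups overlapped (log2 -0.14, 95% interval -0.32 to 0.05, edgeR adjusted p = 0.271). NDUFV1, which holds the flavin and the NADH site, was at 83.9 ± 8.13 and 81.8 ± 6.42 CPM (SD, n = 3 each; log2 interval -0.21 to 0.13). NDUFA2, a small thioredoxin-fold subunit, was lower in every lipoic acid library, at 11.8, 14.3 and 12 against 10.4, 10.3 and 9.48 CPM, and missed the threshold (edgeR adjusted p = 0.0589). NDUFA12 and the zinc-binding NDUFS6 overlapped between groups, with intervals of -0.23 to 0.17 and -0.16 to 0.30.

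In the Q module 1 of 5 subunits was higher and 2 lower, against 24.2% and 23.3% of all genes tested. NDUFA5, an accessory subunit of the same module (chr7:123536997-123558255, minus strand), was at 40.3, 43.7 and 43.7 CPM untreated and 50.6, 49.9 and 53.3 CPM with lipoic acid. The groups were apart and NDUFA5 rose 1.20-fold (log2 0.27, SE 0.07, edgeR adjusted p = 0.0103).

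NDUFS3, a core subunit (chr11:47565336-47584562, plus strand), was at 71.4, 79.9 and 78.2 CPM untreated and 59.1, 58.2 and 58.4 CPM with lipoic acid. The lipoic acid libraries lay close together and below every untreated one, and NDUFS3 fell 1.31-fold (log2 -0.39, SE 0.07, edgeR adjusted p = 0.00119). NDUFS7, the core subunit with the last iron-sulfur cluster before ubiquinone (chr19:1383527-1395589, plus strand), was at 6.64, 6.02 and 4.72 CPM untreated and 3.64, 3.80 and 4.35 CPM with lipoic acid. The groups did not overlap but untreated replicate 3 lay near the lipoic acid range. NDUFS7 fell 1.47-fold (log2 -0.56, SE 0.21, edgeR adjusted p = 0.0461), with 120 to 216 counts per library behind it. These counts are as deposited, nearly all even in untreated replicate 1 and the lipoic acid libraries but not in untreated replicates 2 and 3. This call ended when any of 5 libraries was left out, all but untreated replicate 3 (adjusted p 0.0639 to 0.151). With all libraries kept it also ended with DESeq2 (adjusted p = 0.0593), limma voom with quality weights (0.0736) and edgeR without the count filter (0.056). Genes on the opposite strand overlap 37.9% of the exon bases of NDUFS7. NDUFS8, another iron-sulfur core subunit, was not called (49.7 ± 2.03 and 47.0 ± 2.78 CPM, SD, n = 3 each).

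**Figure D2:**
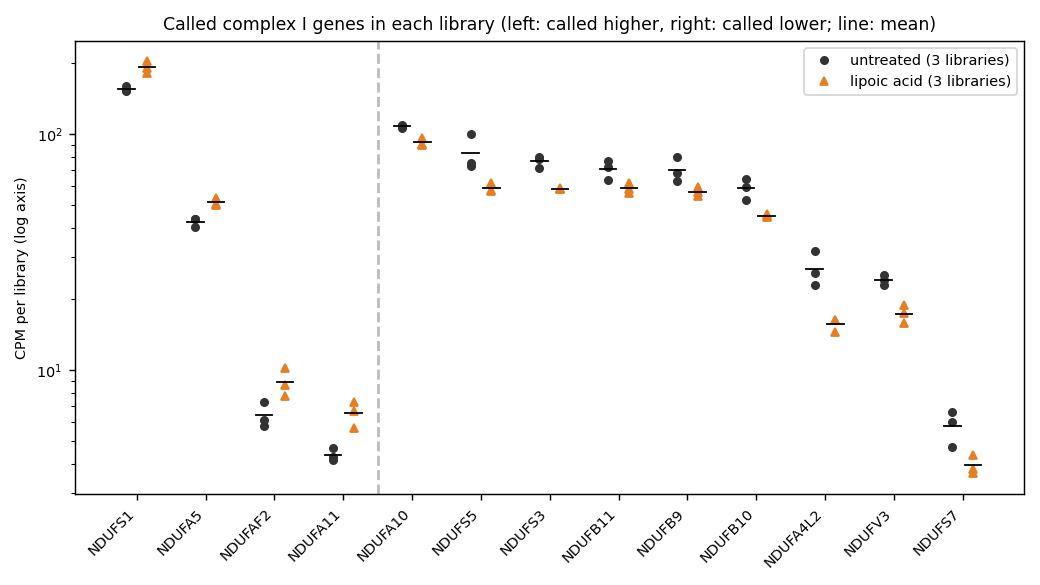
CPM in each library (vertical axis, log scale) of the 13 called members, untreated as circles and lipoic acid as triangles, with lines at the group means. For each gene the circles and triangles do not overlap; NDUFS1 is the most abundant, at 152 to 203 CPM, and NDUFS7 is at 3.64 to 6.64 CPM.

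Of the 9 lower calls, 5 were subunits of the membrane arm. They were 2 of 5 tested around ND2, 2 of 6 around ND4 and 1 of 6 around ND5. Of all genes tested, 23.3% were called lower. None of the 4 tested subunits around ND1 was called. NDUFA1, the highest of them per kilobase (55.5 CPM per kb), was at 43.1, 47.0 and 37.5 CPM untreated and 43.6, 42.5 and 41.2 CPM with lipoic acid. The groups overlapped and the log2 interval was -0.18 to 0.17 (edgeR adjusted p = 0.984). RNF113A on the opposite strand overlaps 44.5% of its exon bases. NDUFA8, a disulfide-bonded subunit facing the intermembrane space, was at 42.6 ± 1.66 and 42.5 ± 0.805 CPM (SD, n = 3 each; interval -0.14 to 0.13). NDUFA9, at the junction of both arms, was at 22.7, 27.4 and 23.5 CPM untreated and 19.9, 22.1 and 20.6 CPM with lipoic acid. Its groups were just apart (edgeR adjusted p = 0.0832).

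Around ND2, 2 of 5 subunits were lower and 1 higher, against 23.3% and 24.2% of all genes tested. NDUFS5, a disulfide-bonded subunit with the highest level per kilobase of all members (130 CPM per kb; chr1:39026318-39034636, plus strand), was at 75.6, 99.7 and 72.9 CPM untreated and 62.1, 57.9 and 57.5 CPM with lipoic acid. Untreated replicate 2 stood above the rest, and every lipoic acid library was below every untreated one. NDUFS5 fell 1.40-fold (log2 -0.48, SE 0.11, edgeR adjusted p = 0.00530). NDUFA10, an accessory subunit with a nucleoside-kinase fold (chr2:239892450-240025402, minus strand), was at 108, 109 and 106 CPM untreated and 95.7, 90.8 and 90 CPM with lipoic acid. The groups were apart and NDUFA10 fell 1.17-fold (log2 -0.22, SE 0.06, edgeR adjusted p = 0.0115). Without lipoic acid replicate 3 that call was lost (adjusted p = 0.0689).

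NDUFA11, a membrane-embedded accessory subunit (chr19:5891276-5904006, minus strand), went the other way within the ND2 part. It was at 4.68, 4.16 and 4.26 CPM untreated and 5.68, 6.71 and 7.30 CPM with lipoic acid, with no overlap. It rose 1.50-fold (log2 0.59, SE 0.18, edgeR adjusted p = 0.0242), a call lost without lipoic acid replicate 2 (adjusted p = 0.0518) or 3 (0.101) or untreated replicate 3 (0.0636), and in the 4 libraries of even counts alone (log2 0.49, adjusted p = 0.139). A same-strand gene, AC024592.3, covers 67.0% of the exon bases of NDUFA11, so its counted level is uncertain. NDUFC1 (log2 interval -0.18 to 0.19) and NDUFC2 (8, 9.28 and 5.98 CPM against 5.43, 5.89 and 5.75 CPM, edgeR adjusted p = 0.0811) were not called. The 5 ND2-part genes summed to 223 ± 19.0 CPM untreated and 185 ± 4.2 CPM with lipoic acid (SD, n = 3 each), a ratio of 0.83, the lowest of the 6 parts.

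Around ND4, 2 of 6 subunits were lower. NDUFB10, a subunit of the distal membrane arm (chr16:1959508-1961975, plus strand), was at 59.3, 64.2 and 52.6 CPM untreated and 45, 45.6 and 44.4 CPM with lipoic acid. The lipoic acid libraries lay within a narrow range below all untreated ones, and NDUFB10 fell 1.30-fold (log2 -0.38, SE 0.08, edgeR adjusted p = 0.00345). NDUFB11, an X-linked subunit (chrX:47142216-47145504, minus strand), was at 72.5, 76.7 and 63.9 CPM untreated and 61.8, 58.5 and 56.4 CPM with lipoic acid. The groups were just apart, and NDUFB11 fell 1.21-fold (log2 -0.27, SE 0.08, edgeR adjusted p = 0.0191). Its call was lost without untreated replicate 1 (adjusted p = 0.0549) or lipoic acid replicate 2 (0.0669) or 3 (0.0950). RBM10 on the opposite strand overlaps 45.8% of its exon bases.

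NDUFB4 had the highest level per kilobase in the ND4 part (84.1 CPM per kb). It was at 55.7, 69.6 and 55.1 CPM untreated and 51.5, 54.8 and 52.0 CPM with lipoic acid. The lowest untreated and the highest lipoic acid library nearly met, and the difference was not called (log2 -0.19, edgeR adjusted p = 0.124). NDUFB5, at 64.7 ± 9.40 and 70.5 ± 2.88 CPM (SD, n = 3 each), and NDUFB1, at 2.62 ± 0.677 and 3.80 ± 0.610 CPM, had positive log2 fold changes (0.12 and 0.53) and overlapping groups. Both were called higher by limma voom with quality weights and by edgeR without untreated replicate 2. NDUFB6 also overlapped (log2 interval -0.41 to 0.05).

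Around ND5, 1 of 6 subunits was lower. NDUFB9, a LYR-motif protein that binds the acyl carrier NDUFAB1 (chr8:124539101-124580648, plus strand), was highest per kilobase there (89.5 CPM per kb). It was at 63.1, 80.1 and 68.1 CPM untreated and 59.4, 56.9 and 54.3 CPM with lipoic acid. The groups were apart, with untreated replicate 2 highest, and NDUFB9 fell 1.24-fold (log2 -0.31, SE 0.09, edgeR adjusted p = 0.0185). The call was lost without lipoic acid replicate 2 (adjusted p = 0.0625) or 3 (0.0872) and with the 4 libraries of even counts alone (log2 -0.15, adjusted p = 0.213). TATDN1 on the opposite strand overlaps 26.0% of its exon bases.

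NDUFAB1, the mitochondrial acyl carrier protein, carries the fatty acyl chain from which lipoate is made in the cell and is also a subunit of complex I. It was at 39.7, 48.1 and 42.0 CPM untreated and 41.3, 42.7 and 37.2 CPM with lipoic acid. The groups overlapped and NDUFAB1 was not called (log2 -0.10, 95% interval -0.28 to 0.08, edgeR adjusted p = 0.389). NDUFB2, NDUFB3, NDUFB7 and NDUFB8 were not called either, with log2 fold changes of 0.17, -0.22, -0.02 and -0.22.

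**Figure D3:**
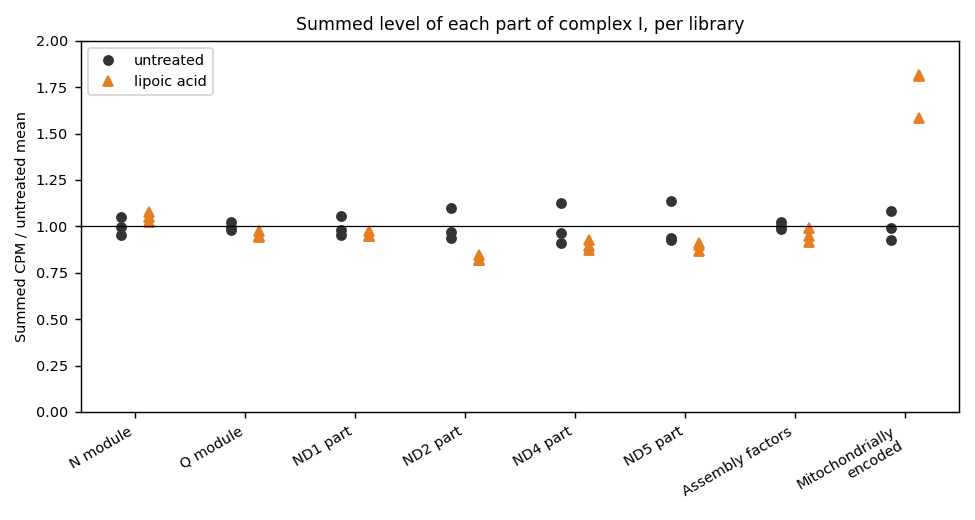
Summed CPM of each part of complex I in each library, divided by the mean of the untreated libraries (vertical axis, starting at 0), with untreated as circles and lipoic acid as triangles. The mitochondrially encoded subunits sit well above 1 with lipoic acid (ratio of means 1.74), while the nuclear parts lie between ratios of 0.83 (ND2 part) and 1.05 (N module).

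Summed over the 37 nuclear subunits, the level was 1542, 1705 and 1500 CPM in the untreated and 1507, 1508 and 1461 CPM in the lipoic acid libraries. These sums overlapped, at 1582 ± 108 and 1492 ± 27.2 CPM (SD, n = 3 each), a ratio of 0.94. The 7 subunits encoded by mitochondrial DNA, which build the membrane core, were all called higher, against 24.2% of all genes tested. Their median log2 fold change was 0.73. Counts of the whole mitochondrial genome, these 7 included, also rose, from 2.454% to 2.821% of the untreated libraries to 4.391% to 5.017% of the lipoic acid ones. MT-ND4L was at 438, 471 and 448 CPM untreated and 1171, 1033 and 1163 CPM with lipoic acid, far apart. MT-ND4L rose 2.48-fold, MT-ND4 1.86-fold and MT-ND1 1.67-fold. MT-ND2 was at 1850, 2564 and 2295 CPM untreated and 2875, 2502 and 2866 CPM with lipoic acid, overlapping, and rose 1.23-fold (edgeR adjusted p = 0.0371). The summed mitochondrial transcripts exceeded the summed nuclear ones 7.96, 8.38 and 8.74 times in the untreated and 15.92, 13.89 and 16.40 times in the lipoic acid libraries. Both groups were clearly apart in this ratio, and 3 libraries against 3 allow no exact permutation p below 0.1. Removing mitochondrial counts before scaling changed none of the 13 calls.

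Of the 7 assembly factors 1 was called (14.3%), against 47.4% of all genes tested. NDUFAF2, a paralog of NDUFA12 that holds its place during assembly (chr5:60945129-61153037, plus strand), was at 5.78, 7.32 and 6.12 CPM untreated and 7.77, 8.61 and 10.2 CPM with lipoic acid. The groups were apart, and NDUFAF2 rose 1.39-fold (log2 0.47, SE 0.17, edgeR adjusted p = 0.0477). Leaving out any library but untreated replicate 2 ended this call (adjusted p 0.0501 to 0.187), as did edgeR without the count filter (0.0548). Of the 50-base words of the NDUFAF2 transcript, 36.3% occur in a pseudogene. NDUFAF1, part of the complex that assembles the membrane arm, was the highest per kilobase (16.5 CPM per kb). It was at 22.1, 27.3 and 23.1 CPM untreated and 21.5, 25.5 and 25.1 CPM with lipoic acid, overlapping (log2 -0.01, 95% interval -0.22 to 0.21, edgeR adjusted p = 0.954).

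NDUFAF3 and NDUFAF4, partners in early Q-module assembly, were both lower in every lipoic acid library. NDUFAF3 was at 24.9, 27.9 and 24.8 against 23.6, 21.9 and 20.2 CPM (edgeR adjusted p = 0.0625), and NDUFAF4 at 17.7, 18.2 and 17.4 against 13.9, 16.3 and 13.2 CPM (0.0552). Neither passed the threshold. NDUFAF5, which hydroxylates NDUFS7, and NDUFAF7, a methyltransferase, overlapped between groups with intervals of -0.17 to 0.21 and -0.26 to 0.22. NDUFAF6 overlapped too (-0.37 to 0.16). Of 11 other known assembly factors tested, 2 were higher (TMEM70, at 20.4 ± 3.07 and 30.3 CPM, 1.49-fold, and TMEM126A, 1.27-fold) and 1 lower (TMEM126B, 1.19-fold), with a median log2 fold change of -0.01. The share called was 27.3%, against 47.4% of all genes tested.

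NDUFA4L2 fell most in fold among the called members. Despite its name it is no subunit of the enzyme: it is a hypoxia-inducible paralog of NDUFA4 known to lower complex I activity. NDUFA4L2 (chr12:57234903-57240715, minus strand) was at 31.8, 25.7 and 22.9 CPM untreated and 16.3, 16.3 and 14.5 CPM with lipoic acid. All lipoic acid libraries lay below the untreated range, and it fell 1.70-fold (log2 -0.77, SE 0.13, edgeR adjusted p = 0.000945). NDUFA4, now placed in complex IV, was at 122, 151 and 127 CPM untreated and 110, 122 and 119 CPM with lipoic acid. These groups met at 122 CPM and NDUFA4 was not called (log2 -0.19, edgeR adjusted p = 0.0965). It was called lower with the GC and length trend removed (-0.32, adjusted p = 0.0290).

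Complex II feeds electrons from succinate into ubiquinone, and complexes III and IV take them on from ubiquinol to oxygen. They were compared through 25 tested nuclear genes. Of these 1 was higher and 9 lower, 40% called against 30.2% for complex I and 47.4% of all genes tested, with medians of -0.17 and -0.14; the difference between the lists was not tested. CYC1 (cytochrome c1, 53.5 ± 4.49 to 32.3 CPM), UQCRFS1 (the Rieske protein) and COX7A2 were among those lower.

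**Figure D4:**
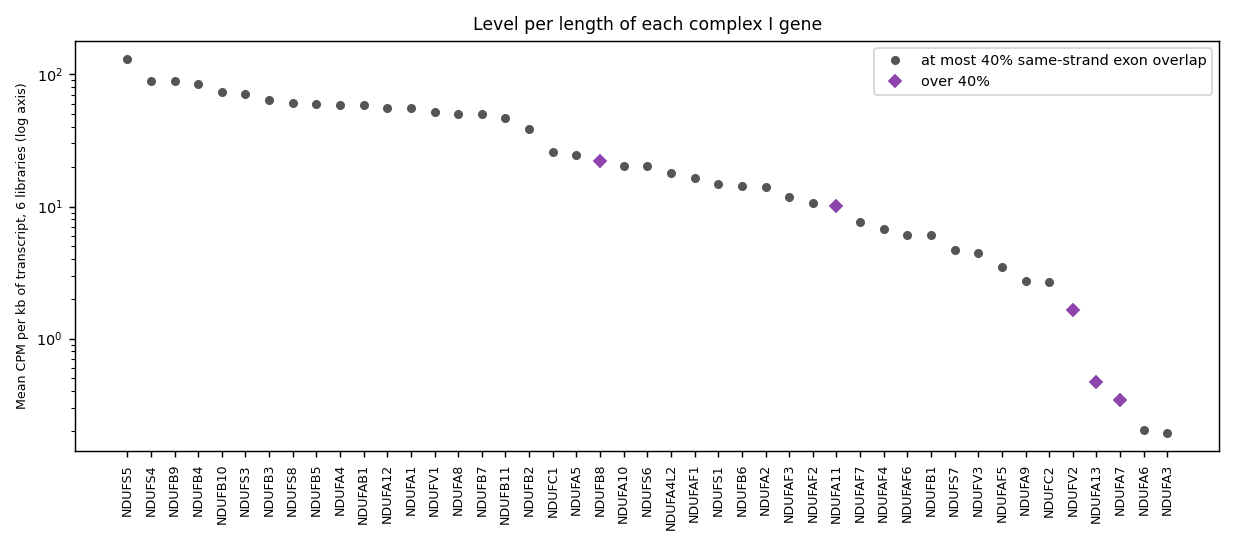
Mean CPM per kilobase of transcript over all 6 libraries (vertical axis, log scale) of members in order of level, with diamonds for the members whose exons overlap another gene on the same strand by over 40%. NDUFS5 is highest at 130 and the diamonds have a median of 1.65 CPM per kb.

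Per kilobase, members differed far more from each other than between the groups. The 5 members with over 40% same-strand exon overlap (NDUFA11, NDUFA13, NDUFA7, NDUFB8 and NDUFV2) had a median of 1.65 CPM per kb (0.343 to 22), and the other 41, without NDUFC2-KCTD14, one of 24.7 (0.194 to 130). NDUFV2, a core iron-sulfur subunit of which AP005263.1 covers 82.9%, was at 1.48, 1.33 and 2.16 CPM untreated and 1.39, 1.52 and 1.31 CPM with lipoic acid. These levels overlapped, and they lie far below those of NDUFV1. NDUFA13, of which AC011448.1 covers 44.1%, stayed under 1 CPM in every library with overlapping groups (edgeR adjusted p = 0.321). The level of NDUFS1 per kilobase (14.7) rests on a transcript model of 11819 bases and that of NDUFA9 (2.72) on one of 8363 bases.

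The 4 members not tested never passed 0.532 CPM. Their counts are given as deposited, and those of untreated replicates 2 and 3 may differ in unit from the nearly all even counts of the other libraries. NDUFA7 had 0, 3 and 3 counts untreated and 20, 14 and 4 with lipoic acid, with 75.9% of its exons under AC010323.1, and without the count filter it was not called (edgeR adjusted p = 0.119). NDUFA3 had 2, 15 and 9 counts untreated and 2, 6 and 1 with lipoic acid, and NDUFA6 had 6, 16 and 3 against 10, 10 and 6. No same-strand gene covers either of them. Of the protein-coding genes within 100000 bases, 7 of 12 around NDUFA3 and 4 of 5 around NDUFA6 also stayed under 1 CPM in every library, against 33% of all 18684. The shares were 3 of 6 around NDUFA13, 1 of 7 around NDUFA7 and 2 of 7 around NDUFC2-KCTD14. The 1 around NDUFA7 is AC010323.1, which overlaps it. Those counted around NDUFC2-KCTD14 include NDUFC2 and KCTD14, which overlap it, and KCTD14 is 1 of the 2 low ones. RPS9, a ribosomal protein gene beside NDUFA3 singled out after its value was seen, averaged 1.78 CPM. NDUFC2-KCTD14 had 0 counts in every library, which allows up to 0.0390 CPM untreated and 0.0532 CPM with lipoic acid (3 counts over a group, even counts halved, counting error only).

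The part of untreated replicate 2 and of transcript length and GC content in these calls was assessed by fits without them. Untreated replicate 2 was the highest untreated library for 31 of 43 members, against 37.9% of all genes. Without it 6 members were called higher and 8 lower (background 25.1% and 24.2%), and the members' median moved from -0.14 to -0.06. Member transcripts were short (median 991 bases against 3038 for all genes tested), with a GC content of 48.5% against 48.3%. Across the 43 members, which share the libraries, Spearman's rho between log2 fold change and GC content was -0.24, and -0.16 across all genes. Between log2 fold change and length it was -0.14 across the members and 0.13 across all genes. Between length and the excess of untreated replicate 2 over the other untreated libraries it was -0.42 and -0.19. The members called higher had a median GC content of 43.9% and those called lower 54.4%.

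With a smooth trend on GC content and length removed from each library, 1 member was called higher and 11 lower, against 18.8% and 26.8% of all genes. NDUFA11 was the one still higher (log2 0.72, edgeR adjusted p = 0.0132). NDUFS1 (0.11, adjusted p = 0.422), NDUFA5 (0.14, 0.147) and NDUFAF2 (0.42, 0.0722) were no longer called, nor were NDUFS7 (-0.22, 0.389) and NDUFB11 (-0.12, 0.221). NDUFA4, NDUFA9, NDUFAF4 and NDUFC2 were added as lower. The lengths used were those of the transcript models, 11819 bases for NDUFS1 and 8363 bases for NDUFA9. The trend was fitted within each library, so differences between the groups that go with GC content or length were removed with it. Whether the trend is technical was not tested. NDUFA4L2, NDUFB10, NDUFS3, NDUFS5 and NDUFV3, all lower, were called in each of 18 other fits as well.

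**Figure D5:**
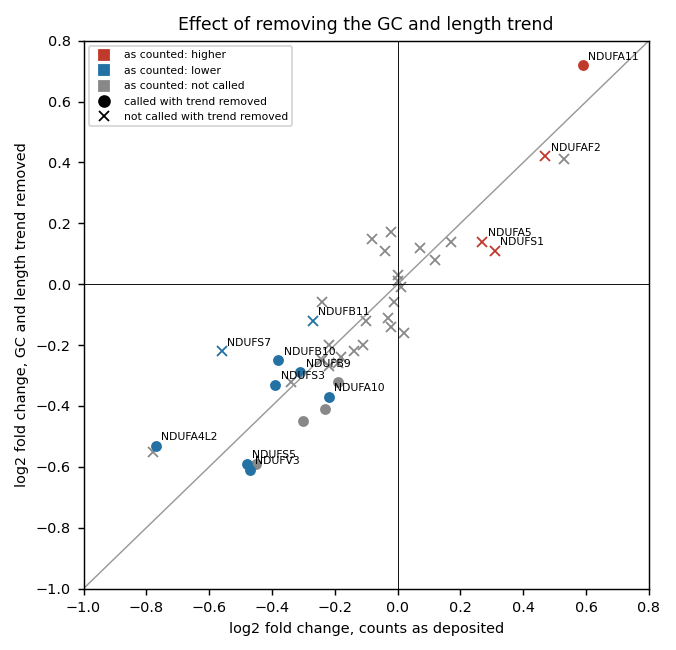
Log2 fold change of 42 tested members with the counts as deposited (horizontal axis) and with the GC and length trend removed (vertical axis), coloured by the call as counted, with crosses for members not called once the trend is removed. NDUFS1 moves from 0.31 to 0.11 and loses its call, while NDUFA11 moves from 0.59 to 0.72.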

How the data were processed

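RNA from 6 libraries of 1000 sorted cells was measured as raw counts per gene symbol, deposited by the authors. HISAT2 and featureCounts on hg38, and DESeq2, are named per the submitters' processing notes. The sources used here give no version, annotation, strand setting or handling of multiply aligned reads, so overlapping genes and pseudogene copies cannot be told apart in these counts.

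Genes were kept by filterByExpr (13780 of 29436 tested) and scaled by TMM. Lipoic acid was compared with untreated by the quasi-likelihood F test of edgeR 4.0.16 in R 4.3.3, with Benjamini-Hochberg adjustment over all genes tested and calls at 0.05. CPM use TMM-scaled library sizes, folds are fitted, and 95% intervals come from standard errors by a normal approximation. These intervals are narrower than the F test implies. That of NDUFA4, for example, was -0.36 to -0.02 at an edgeR p of 0.0535 before adjustment. The common biological coefficient of variation was 0.137. Exon overlaps, lengths and shared 50-base words came from GENCODE v29 (99.27% of symbols matched), and promoters from RefSeq on GRCh38.p14.

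Members, lists and motifs were chosen with earlier results of these data known. Values per library are given for called members, for the highest member per kilobase of each part (1 such member is counted but not reported here by name or plotted), for NDUFA4, NDUFA4L2 and NDUFAB1 and for members not tested, and up to 3 called genes of each other list are named; further members are described by means or intervals. MT-ND2, a further called gene, and the values of NDUFA2, NDUFA9, NDUFC2, NDUFV2, NDUFAF3 and NDUFAF4 were added after they were seen. Of the coenzyme Q genes, PDSS1 was named as the partner of PDSS2 in place of COQ9, which was also called lower and had a smaller edgeR p. Alternatives were other scalings and filters, DESeq2 1.42.0, limma 3.58.1 voom, robust moderation, a replicate block, leaving out each library, no mitochondrial genes, even counts halved, the 4 libraries of even counts alone, a GC and length trend removed (mgcv 1.9.3) and an adjusted p under 0.1.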

Additional observations from a re-analysis of the deposited data

How the results depend on the processing

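Against 4 members called higher and 9 lower, voom called 7 higher and 10 lower, the fit without the GC and length trend 1 and 11, and an adjusted p under 0.1 gave 4 and 15. Voom added NDUFB1, NDUFB2 and NDUFB5 as higher and NDUFA2 and NDUFAF4 as lower, and lost NDUFS7. The fit without untreated replicate 2 added NDUFB1 and NDUFB5 as higher and lost NDUFS7. Leaving out each library in turn gave 2 to 6 higher and 5 to 10 lower, with a median log2 fold change of -0.19 to -0.06. The 4 libraries of even counts alone gave 4 and 8, with untreated replicate 1 as a lone control assumed to vary like the lipoic acid libraries. The replicate block gave 3 and 10 (24.3% and 23.2% of all genes), lost NDUFAF2 and NDUFS7 and added NDUFA4 (-0.18, adjusted p = 0.04) and NDUFAF4 as lower. Same-numbered libraries correlated at 0.06, 0.06 and 0.08 in their deviations, and the other pairs at -0.06 to 0.01. Each library thus correlated best with its own number, but weakly. Neither these values nor the labels settle whether the libraries are paired. The members' median stayed negative in every fit, from -0.19 to -0.06. No called member changed sign. Among members not called, NDUFS4 was at 0.06 and NDUFAB1 at 0.02 in the 4 libraries of even counts, and NDUFAF1 at 0.12 there, 0.04 with voom and -0.06 to 0.09 with a library left out. NDUFA1 was at 0.00 with relative log expression, upper-quartile scaling, the filter of 1 CPM, the replicate block or no mitochondrial genes, 0.01 with DESeq2, 0.03 with the trend removed, 0.08 with voom and -0.08 to 0.07 with a library left out. Further members near 0, such as NDUFAF5 and NDUFB7, also changed sign in some fits. The causes were not tested. Low counts limit what can be seen for members at a few CPM or less, such as NDUFA13, NDUFV2, NDUFB1, NDUFS7 and NDUFA11, and for the 4 members not tested.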

Other observations

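Genes that make the cofactors of complex I did not move one way. Of 13 tested genes of mitochondrial iron-sulfur cluster assembly, 2 were called higher and 2 lower by edgeR (30.8%, against 47.4% of all genes), with a median log2 fold change of -0.18. HSPA9, the mitochondrial chaperone of the pathway, was at 250, 241 and 256 CPM untreated and 358, 364 and 369 CPM with lipoic acid, a 1.46-fold rise. NFS1, the cysteine desulfurase, rose 1.40-fold, while GLRX5, which hands clusters on, fell 1.32-fold. The list summed to 555 ± 11.4 CPM untreated and 646 ± 2.22 CPM with lipoic acid (SD, n = 3 each), a smaller gain than that of HSPA9 alone, so the other genes together summed to less with lipoic acid.

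Of 11 tested genes of coenzyme Q synthesis, 1 was called higher and 3 lower (36.4%), with a median of -0.08. Both subunits of the enzyme that makes the isoprenoid tail went opposite ways: PDSS2 rose 1.50-fold (22.3 ± 3.13 to 33.5 CPM) and PDSS1 fell 1.45-fold (9.30 ± 1.42 to 6.42 CPM). COQ2, which joins the tail to the ring, fell 1.63-fold (9.23, 11.1 and 8.41 CPM to 5.58, 5.63 and 6.43 CPM).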
